A study of Mus musculus with 27 samples.

Results

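The bone morphogenetic protein (BMP) genes described here were the ligands Bmp2, Bmp4 and Bmp7, the extracellular antagonists and modulators Grem1, Nog and Bmper, the inhibitory SMAD Smad6, and the target genes Id1, Id2 and Id3. They were chosen by symbol, and all 10 had a row among the 24953 genes of the expression table. The cells were mK4, a mouse line of kidney metanephric mesenchyme, the tissue that gives rise to nephrons. Poly(A) RNA was sequenced from control mK4 cells, from Runx1KO cells and from ZebDKO cells, with 3 libraries from triplicate cultures of each. Chromatin was mapped in control and Runx1KO cells by ATAC-seq, which marks open regions, and by ChIP-seq with antibodies to the transcription factors Runx1 and Runx2. The comparisons asked what the loss of Runx1, or of the transcriptional repressors Zeb1 and Zeb2, did to gene expression.

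Control cells carried no deletion. Runx1KO cells were derived from them with Cas9 and a pair of guides that removed exon 3 of Runx1, and ZebDKO cells in the same way by removing exon 2 of Zeb1 and exon 1 of Zeb2. All 3 groups were grown in the same serum-containing medium until nearly confluent, and no BMP ligand or inhibitor was added. The knockout cells were selected with puromycin and expanded from picked clones. How many clones went into the libraries is not given in the sources used here. Control cells were the parental line, for which no selection or cloning is described. A difference between groups can therefore hold a difference between clones, which cannot be told apart from genotype. The same holds for selection and cloning in either knockout against control. Whether the ZebDKO libraries were made and sequenced together with the others is also not given. A batch of that kind could not be told apart from the ZebDKO genotype. The p-values below refer to the spread between triplicate cultures.

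BMP ligands are secreted dimers of the TGF-beta superfamily that bind type I and type II serine/threonine kinase receptors, which phosphorylate SMAD1, SMAD5 and SMAD9. These SMADs enter the nucleus with SMAD4 and switch on a small set of immediate targets, among them the Id genes, whose products bind basic helix-loop-helix factors and keep them from DNA. Secreted antagonists such as noggin and gremlin hold the ligand away from its receptor, inhibitory SMADs block the signal inside the cell, and in the developing kidney BMP7 supports nephron progenitors while gremlin limits BMP4 around the ureteric bud.

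Expression was read as TPM, a transcript share scaled by the authors for gene length and library total. A comparison took the 6 libraries of a pair of groups, and genes that reached 1 TPM in 3 or more of them were tested with limma on log2(TPM + 1), and a gene was called when it changed more than 2-fold at a Benjamini-Hochberg adjusted p under 0.05. The libraries of each group correlated at r = 0.994 to 0.996 across 13374 genes, and 12541 to 12697 genes reached 1 TPM. Zeb1 and Zeb2 fell in Runx1KO cells, to 0.167 and 0.200 TPM from 14.97 and 5.20 TPM in control cells. Runx1 stood at 29.6 TPM in the Runx1KO group and 17.4 TPM in the control group, and Zeb1 at 16.1 TPM in ZebDKO cells. TPM is summed over the gene and the deletions remove single exons, so these levels do not check the labels. Zeb2 fell to 1.70 TPM in ZebDKO cells (log2 fold change -1.20, called), in the direction of its label. Deletions were genotyped by PCR and Runx1 and Zeb1 protein examined by Western blot in the study, which were not analysed here. Of the markers of mesenchyme and nephron progenitors, 6 of 10 reached 1 TPM in some library, Pax2, Sall1, Eya1 and Vim in all of them, while Hoxd11 was at 0 and Six2 did not pass 0.2 TPM. Of these 6, Osr1 (66.4 to 0.4 TPM), Gdnf (12.7 to 0.1 TPM) and Eya1 (16.2 to 5.87 TPM) were called lower in Runx1KO cells, while in ZebDKO cells Osr1 was called lower (18.2 TPM) and Gdnf higher (39.8 TPM). Pax2 (313 to 470 TPM) and Sall1 (52.1 to 65.7 TPM) were higher in Runx1KO cells. In ZebDKO cells they were lower, at 222 and 37.0 TPM. Neither was called against control, nor was Vim, at 2803, 2806 and 2089 TPM in control, Runx1KO and ZebDKO cells. The list summed to 3207 to 3343 TPM in control, 3282 to 3419 TPM in Runx1KO and 2400.2 to 2464 TPM in ZebDKO libraries, most of it from Vim. The summed level of 8 epithelial markers was 2.1 to 4.2 TPM in control, 2569 to 2650 TPM in Runx1KO and 1145 to 1204 TPM in ZebDKO libraries, with most of it from the keratin Krt8 and with 5 of the 8 genes at 1 TPM in any library. Krt8, Krt18 and Cldn4 were called higher in both knockouts. Epcam was at 0 in Runx1KO and 27.9 TPM in ZebDKO cells, and Esrp1 at 1.17 and 0.2 TPM. Cdh1, Cldn3 and Cldn7 did not pass 0.6 TPM in any library. The 4 immune markers summed to 4.5 to 6.5, 31.1 to 33.9 and 36.5 to 37.7 TPM in the same groups. Most of the rise in this sum came from Csf1r, at 0.7 TPM in control, 29.7 TPM in Runx1KO and 24.5 TPM in ZebDKO cells. Cd79a was lower in Runx1KO cells (log2 fold change -0.65, not called) and was called higher in ZebDKO cells (1.29). The leukocyte gene Ptprc was at 0 throughout, and Cd3e did not pass 0.1 TPM. The 6 stromal markers summed to 147.6 to 159.6, 94.9 to 100 and 86.3 to 89.9 TPM in these groups, most of it from Foxd1 and Tbx18. Of the 4 tested, 0 were called in Runx1KO cells, and Tbx18 alone was called, lower, in ZebDKO cells. Col1a1 was higher in ZebDKO cells (2.03 to 3.40 TPM, not called). The 6 ureteric bud markers summed to 30.8 to 33.3, 33.5 to 34.5 and 39.9 to 42.1 TPM. The 4 endothelial markers summed to 2.9 to 4.6, 1 to 1.3 and 3.6 to 5.8 TPM. Against control, Wnt11 of the first list was called higher and Cdh5 of the second lower, both in Runx1KO cells. The epithelial, immune, stromal and ureteric bud sums and Osr1 also differed from control in both knockouts. The part of these markers in the differences from control described below was not tested.

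Bmp7, which encodes the main BMP of nephron progenitors (ENSMUSG00000008999.7, mm9 chr2:172693513-172765822, minus strand), was the only member ligand above 1 TPM. Its level was 6.9, 5.8 and 6.6 TPM in the control libraries, 19.2, 19 and 17.5 TPM in the Runx1KO libraries and 15.6, 15.2 and 18.5 TPM in the ZebDKO libraries. Every knockout library lay above every control library, and the ranges of the Runx1KO and ZebDKO libraries overlapped. Bmp7 rose 2.89-fold in Runx1KO cells, from 6.43 ± 0.569 to 18.6 ± 0.929 TPM (mean ± SD, n = 3), a log2 fold change of 1.40 (SE 0.070, limma adjusted p = 3.01e-06). In ZebDKO cells it rose 2.55-fold, to 16.4 ± 1.80 TPM (log2 fold change 1.23, SE 0.091, limma adjusted p = 1.24e-05). The direct comparison of ZebDKO with Runx1KO cells gave a log2 fold change of -0.17 for Bmp7 with a 95% confidence interval of -0.36 to 0.02 (limma adjusted p = 0.0804).

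Bmp2 (mm9 chr2:133377895-133388621, plus strand) and Bmp4 (mm9 chr14:47003195-47010344, minus strand), ligands with wide roles in bone, heart and ureter, did not pass the filter in any comparison. Bmp2 was listed at 0 in 8 libraries and at 0.1 TPM in the other, a ZebDKO library. Bmp4 was listed at 0.1, 0 and 0.1 TPM in control, 0.3, 0 and 0.1 TPM in Runx1KO and 0.2, 0.1 and 0.4 TPM in ZebDKO libraries. These values lie within a few steps of 0.1 TPM, the last decimal of the table, and the groups overlapped.

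Nog, which encodes noggin, a secreted protein that binds BMP dimers and covers their receptor sites (ENSMUSG00000048616.3, mm9 chr11:89161952-89163873, minus strand), was the most abundant member antagonist in control cells. It stood at 36.7, 30.2 and 28.8 TPM in control libraries, at 0.1, 0 and 0.4 TPM in Runx1KO libraries and at 9.9, 9.2 and 11.4 TPM in ZebDKO libraries. The 3 groups were separate from one another, with the ZebDKO libraries between the others. Nog fell by 4.82 on the log2(TPM + 1) scale in Runx1KO cells (SE 0.145, limma adjusted p = 2.28e-07) and by 1.56 in ZebDKO cells (SE 0.106, limma adjusted p = 8.39e-06). Its mean in ZebDKO cells, 10.2 ± 1.12 TPM, was 31.9% of the control mean of 31.9 ± 4.22 TPM. Set directly against each other, ZebDKO cells were higher than Runx1KO cells by 3.27 on the log2 scale (SE 0.141, limma adjusted p = 8.77e-07). The value against Runx1KO libraries depends on the number added before the logarithm, because those libraries are near 0. When 0.1 was added it was -7.21 for Runx1KO against control and 5.57 for ZebDKO against Runx1KO cells.

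Bmper, whose product crossveinless-2 is a secreted BMP-binding protein that can restrain or assist signalling (ENSMUSG00000031963.7, mm9 chr9:23027520-23289646, plus strand), was listed at 7.4, 6.1 and 6.5 TPM in control libraries and at 0.4, 0.3 and 0.6 TPM in ZebDKO libraries. All 3 Runx1KO libraries were listed at 0. The groups did not overlap. Bmper fell in Runx1KO cells (log2(TPM + 1) difference -2.94, SE 0.088, limma adjusted p = 2.22e-07), where that difference is set by the number added to 0 and is not a fold (-6.08 when 0.1 was added). In ZebDKO cells it fell by 2.42 on the same scale (SE 0.109, limma adjusted p = 1.22e-06), to 6.5% of the control mean (-3.70 when 0.1 was added). Between the knockouts Bmper did not pass the filter, since no library of either reached 1 TPM, and without the filter ZebDKO cells were higher by 0.51 on the same scale (limma adjusted p = 0.00221), short of the 2-fold limit. A second deposited table of control and Runx1KO libraries listed Bmper at 0.02 TPM in 1 Runx1KO library and at 0 in the others.

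Grem1, which encodes the antagonist gremlin (mm9 chr2:113586321-113598803, minus strand), was listed at 0, 0.2 and 0.2 TPM in control libraries and at 0 in all 6 knockout libraries. It did not pass the filter.

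Smad6, an inhibitory SMAD that is itself induced by BMP signalling (ENSMUSG00000036867.5, mm9 chr9:63800953-63869866, minus strand), was not called in any comparison. Its level was 10, 8.3 and 7 TPM in control, 11.6, 10.7 and 10.9 TPM in Runx1KO and 6.2, 7.2 and 8.2 TPM in ZebDKO libraries. The Runx1KO libraries lay above both other groups, and control and ZebDKO libraries overlapped. The log2 fold change was 0.37 in Runx1KO cells (SE 0.112, limma adjusted p = 0.0221) and -0.20 in ZebDKO cells (SE 0.134, limma adjusted p = 0.211). Between the knockouts it was -0.56 (SE 0.092, limma adjusted p = 8.06e-04), short of the 2-fold limit.

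The 3 Id genes gave 3 different patterns. Id1 (ENSMUSG00000042745.9, mm9 chr2:152561987-152563146, plus strand), a classic direct target of BMP-activated SMADs, was at 84.7, 85.5 and 83.5 TPM in control, 90.3, 81.9 and 86.1 TPM in Runx1KO and 85.4, 80.8 and 71.3 TPM in ZebDKO libraries. All 3 groups overlapped. Its log2 fold change was 0.02 in Runx1KO cells with a 95% confidence interval of -0.07 to 0.12 (limma adjusted p = 0.599), and -0.10 in ZebDKO cells with an interval of -0.25 to 0.05 (limma adjusted p = 0.191). These intervals lie inside the 2-fold limit.

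Id2 (ENSMUSG00000020644.8, mm9 chr12:25778666-25780957, minus strand), which restrains basic helix-loop-helix factors in many progenitor cells, had its highest level in control cells. It stood at 347.5, 320 and 336.3 TPM there, at 74.7, 68.9 and 80 TPM in Runx1KO libraries and at 95.1, 97.4 and 88.3 TPM in ZebDKO libraries. The groups were separate, and the distance from control to either knockout was many times the spread between libraries. Id2 fell by 2.15 on the log2 scale in Runx1KO cells (SE 0.058, limma adjusted p = 1.43e-07), 4.49-fold, and by 1.83 in ZebDKO cells (SE 0.047, limma adjusted p = 9.58e-08), 3.57-fold. ZebDKO cells were higher than Runx1KO cells by 0.33 (SE 0.061, limma adjusted p = 0.00175), which is short of the limit.

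Id3 (ENSMUSG00000007872.3, mm9 chr4:135699412-135701670, plus strand), also a BMP target, was at 294.1, 310.4 and 301.4 TPM in control, 248.6, 240.4 and 267 TPM in Runx1KO and 578.7, 534.6 and 456 TPM in ZebDKO libraries. The groups were separate and the knockouts lay on opposite sides of control. The log2 fold change was -0.26 in Runx1KO cells (SE 0.043, limma adjusted p = 0.00127) and 0.78 in ZebDKO cells (SE 0.080, limma adjusted p = 6.58e-05), and neither reached the 2-fold limit. Id3 was called between the knockouts, 2.08-fold higher in ZebDKO cells (log2 fold change 1.05, SE 0.085, limma adjusted p = 1.92e-05). That call was lost when the ZebDKO library with 578.7 TPM was left out (log2 fold change 0.97) and under quantile normalization (0.999).

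**Figure D1:**
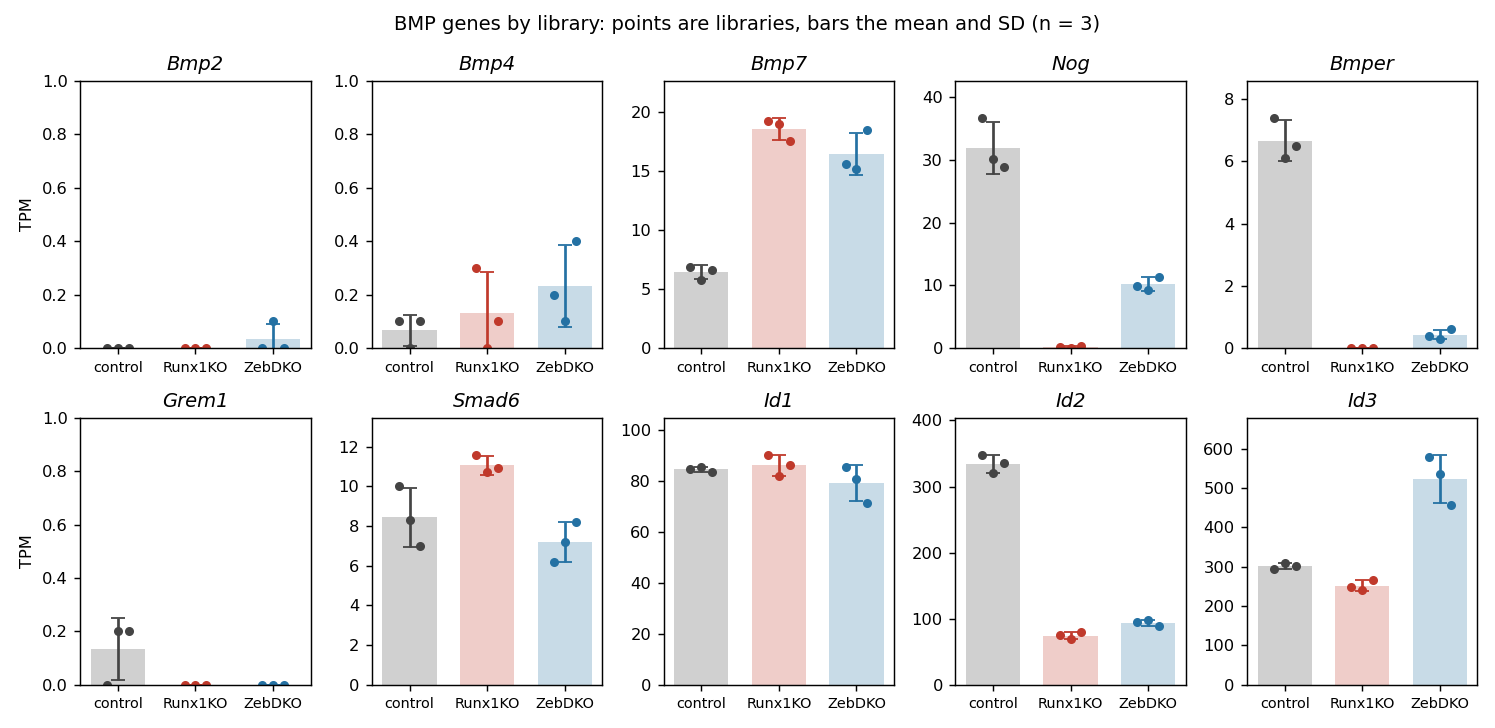
TPM of the 10 BMP genes in control, Runx1KO and ZebDKO mK4 cells, 1 panel a gene and each with its own axis from 0. Points are the 3 libraries of a group and bars their mean with the SD. Nog, Bmper and Id2 were highest in control, Bmp7 lowest in control, Id3 highest in ZebDKO, and the groups overlapped for Id1.

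In Runx1KO against control cells, 7 of the 10 genes were tested, of which Bmp7 was called higher and Nog, Bmper and Id2 lower. Of all 13067 genes tested, 13.0% were called, 7.91% higher and 5.10% lower. In ZebDKO against control cells 7 were tested and Bmp7 was again called higher and Nog, Bmper and Id2 lower, where 14.8% of 12974 genes were called, 7.50% higher and 7.28% lower. These comparisons share the control libraries. In ZebDKO against Runx1KO cells 6 were tested, and Nog and Id3 were called higher, where 15.8% of 13071 genes were called, 6.60% higher and 9.20% lower. At any fold, 4 of the 6 (Nog, Id3, Id2 and Smad6) had an adjusted p under 0.05 in limma, as did 80.0% of all genes tested, so that count is not a result about these members. Nog and Bmper passed the filter in some comparisons through a single group, so the counts describe these genes and carry no weight as a share. Groups that do not overlap were common across the table, at 73.7%, 81.0% and 81.7% of tested genes in the 3 comparisons. The median log2 fold change of all tested genes was -0.06, -0.18 and -0.15 in these comparisons, and relative to it Bmp7 was at 1.46 and 1.41, Nog at -4.77 and -1.37, Bmper at -2.88 and -2.24 and Id2 at -2.09 and -1.64 against control. Relative to the same median Id3 was at 0.97 in ZebDKO against control cells and at 1.19 between the knockouts. Median-ratio scaling, which takes this shift out, moved the share of calls that were higher from 50.8% to 64.2% in ZebDKO against control cells and from 41.8% to 53.8% between the knockouts, where quantile normalization gave 52.4%. A limit of 1.3-fold lowered that share from 60.8% to 49.7% in Runx1KO against control cells and from 50.8% to 33.3% in ZebDKO against control cells.

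**Figure D2:**
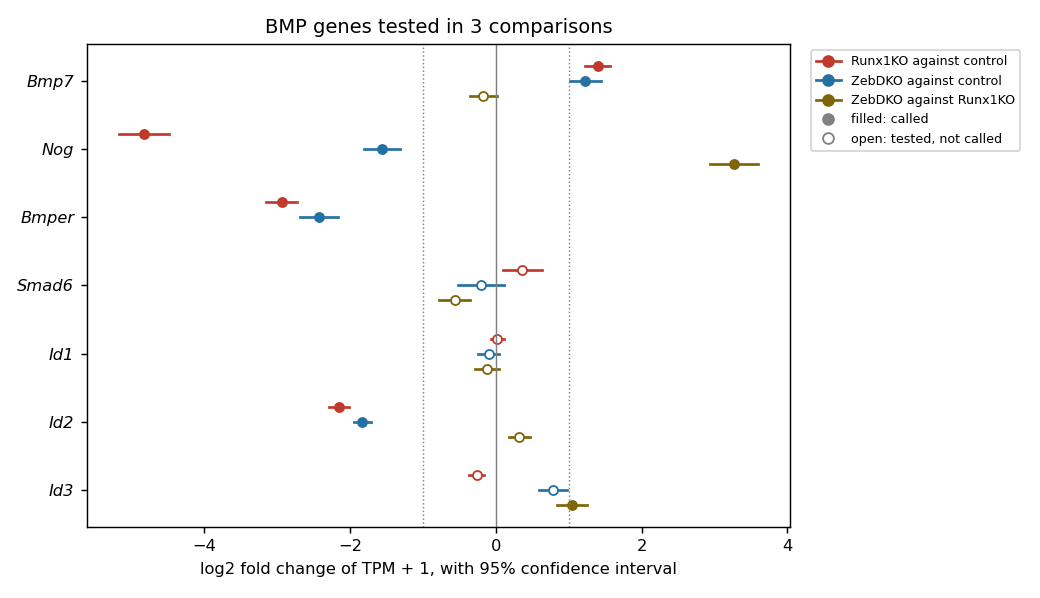
Log2 fold change of TPM + 1 for the 7 tested BMP genes in 3 comparisons, with 95% confidence intervals from limma. Filled points were called and dotted lines mark the 2-fold limit. Bmp7, Nog, Bmper and Id2 lie past the limit in both knockouts against control, with Nog at -4.82 in Runx1KO and -1.56 in ZebDKO cells.

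The rest of the pathway was read from a list of 65 further genes, of which 33 were tested in each comparison. Called genes numbered 2 higher and 5 lower in Runx1KO against control cells, where 7.91% and 5.10% of all genes tested were called. They numbered 5 higher and 6 lower in ZebDKO against control cells, beside 7.50% and 7.28%, and 4 higher and 7 lower between the knockouts, beside 6.60% and 9.20%. Some of them passed the filter through a single group, and the counts are a description of the list. The median log2 fold change of the tested list was -0.04, -0.38 and -0.50 in these comparisons, beside the medians of -0.06, -0.18 and -0.15 over all genes.

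Of 12 further ligand genes, 3 were tested in Runx1KO against control cells and 4 in the other comparisons, and Bmp5 and Bmp6 were called in some comparison. Bmp5, a relative of Bmp7 that signals through the same receptors, was at 1.1, 1.3 and 1.8 TPM in control, 0.1, 0.2 and 0.1 TPM in Runx1KO and 35.5, 38.3 and 35.8 TPM in ZebDKO libraries. It rose 26.1-fold in ZebDKO cells (log2 fold change 3.98, SE 0.106, limma adjusted p = 1.06e-07) and fell in Runx1KO cells (log2 fold change -1.07, SE 0.130, limma adjusted p = 2.68e-04), where it passed the filter through the control libraries alone. The knockouts thus lay on opposite sides of control for Bmp5, as they did for Id3. Bmp6 was at 34.1 ± 2.27 TPM in control, 42.03 ± 2.37 TPM in Runx1KO and 20.3 ± 0.6 TPM in ZebDKO cells, and was called between the knockouts alone (log2 fold change -1.01).

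Of 12 receptor and coreceptor genes, 9 were tested in each comparison with control and 8 between the knockouts. Calls were 0 higher and 2 lower in each comparison with control, and 0 higher and 1 lower between the knockouts. Of all genes, 6.60% to 7.91% were called higher, so 0 among so few is near the background. Called lower were 5.10%, 7.28% and 9.20% of all genes in Runx1KO against control, ZebDKO against control and between the knockouts. The median log2 fold change of the tested receptor genes was -0.08, -0.71 and -0.68 there, beside -0.06, -0.18 and -0.15 over all genes. Rgma, a membrane-bound BMP coreceptor, fell from 17.7 ± 0.265 TPM in control to 6.53 ± 0.611 TPM in Runx1KO and 4.33 ± 0.404 TPM in ZebDKO cells. Tgfbr3, betaglycan, a coreceptor for several TGF-beta superfamily ligands, fell from 30.2 ± 1.27 to 10.1 ± 1.28 and 4.03 ± 0.252 TPM, and was also called lower in ZebDKO than in Runx1KO cells (log2 fold change -1.14).

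Of 19 other antagonists and modulators, 8 were tested in Runx1KO against control cells. Nbl1, a DAN-family antagonist related to gremlin, rose from 6.37 ± 0.404 TPM in control to 37.4 ± 2.75 TPM in Runx1KO cells (log2 fold change 2.38) and 16.0 ± 0.458 TPM in ZebDKO cells (log2 fold change 1.21), in the direction opposite to Nog and Bmper. Fst, follistatin, which binds activins and some BMPs, was at 20.4 ± 1.31 and 22.2 ± 0.723 TPM in control and Runx1KO cells and fell to 6.70 ± 0.346 TPM in ZebDKO cells (log2 fold change -1.47).

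All 12 intracellular SMADs and regulators were tested. Smad9, a receptor-regulated SMAD, fell in Runx1KO cells from 2.77 ± 0.252 to 0.567 ± 0.208 TPM (log2 fold change -1.27), where it passed the filter through the control libraries alone, and was at 2.27 ± 0.153 TPM in ZebDKO cells. Smad7, an inhibitory SMAD like Smad6, was at 20.5 ± 2.24 and 26.9 ± 1.3 TPM in the control and Runx1KO groups and rose to 74.5 ± 3.72 TPM in ZebDKO cells (log2 fold change 1.82). Tob1 and Tob2, which encode related antiproliferative proteins that can bind BMP SMADs, changed in different knockouts. Tob1 rose from 120.7 ± 6.44 to 297 ± 5.48 TPM in Runx1KO cells and was at 108.7 ± 0.265 TPM in ZebDKO cells, while Tob2 was at 126.7 ± 7.37 and 128 ± 1.59 TPM in control and Runx1KO cells and rose to 329 ± 3.09 TPM in ZebDKO cells. In ZebDKO against control cells the SMAD corepressor gene Skil was called higher (log2 fold change 1.04), and its relative Ski (-1.13) and the pseudoreceptor gene Bambi (-1.32) were called lower.

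Of 10 further target genes, Atoh8 alone was tested. Atoh8, a basic helix-loop-helix gene that responds to BMP signalling, fell from 36.0 ± 0.839 TPM in control to 6.93 ± 0.306 TPM in Runx1KO cells (log2 fold change -2.22, SE 0.045, limma adjusted p = 3.86e-08) and 8.03 ± 1.67 TPM in ZebDKO cells (log2 fold change -2.05, SE 0.119, limma adjusted p = 3.82e-06). As for Id2, control lay above both knockouts. Unlike those of Id2, the ZebDKO and Runx1KO libraries overlapped for Atoh8 (log2 fold change between the knockouts 0.17 with a 95% confidence interval of -0.12 to 0.46, limma adjusted p = 0.232).

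**Figure D3:**
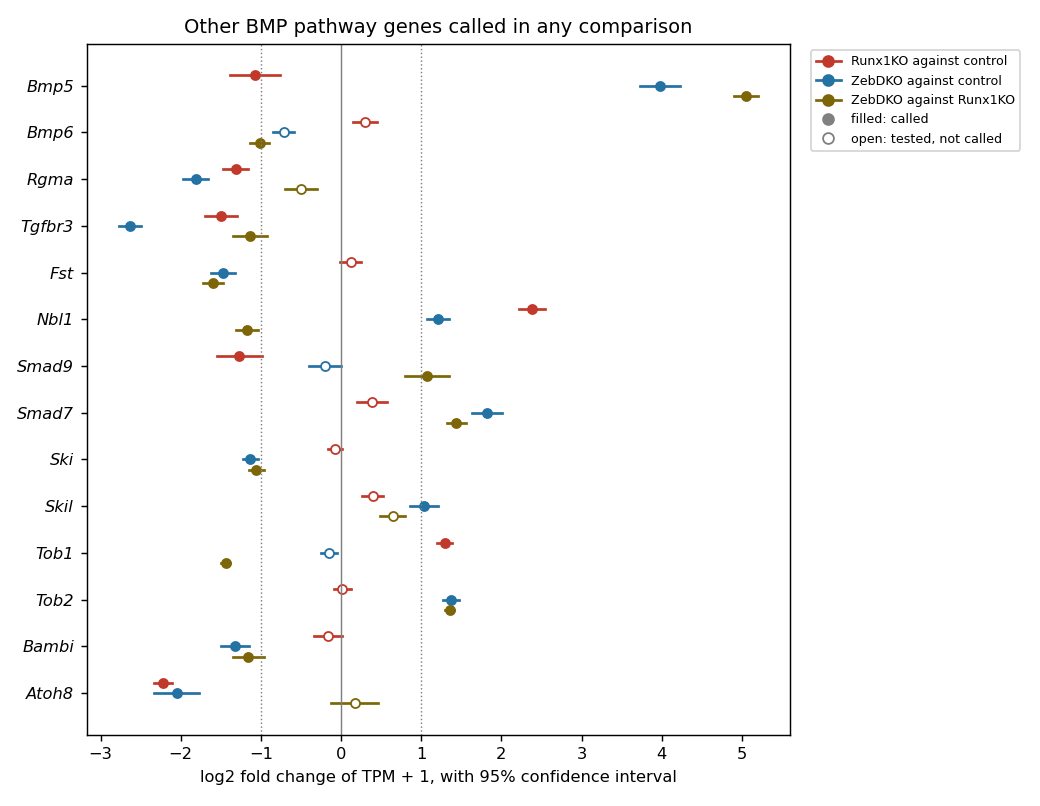
Log2 fold change of TPM + 1, with 95% confidence intervals, of the 14 further BMP pathway genes called in at least 1 of 3 comparisons, ordered from ligands at the top to the target Atoh8 at the bottom. Bmp5 lies at -1.07 in Runx1KO and 3.98 in ZebDKO cells against control, and Nbl1 is higher in both.

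Chromatin near the 10 genes was read from lists deposited by the authors, with each peak placed on the gene of the nearest protein-coding transcription start within 100 kb (GENCODE vM1, mm9). ATAC-seq regions were in 3 classes, named Runx1-dependent when less open in Runx1KO cells, Runx1KO-induced when more open there, and Runx1-independent otherwise. The lists hold no values per replicate, so no test was made, and ZebDKO cells were not mapped. Together the 10 genes had 17 Runx1-dependent, 12 Runx1KO-induced and 29 Runx1-independent regions.

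Nog and Bmper were the members with a Runx1-dependent region over the transcription start, as were 2.06% of the 18677 genes of the table with a coding start. Neither had a Runx1KO-induced or a Runx1-independent region. The Nog region at its start was 2367 bp wide, and a further Runx1-dependent region of 843 bp lay 95.6 kb downstream in intergenic sequence. Bmper had 10 Runx1-dependent regions, from 65.8 kb upstream to 77.5 kb downstream of its start, with 3 of them in Bmper introns and the others centred outside annotated genes. The gene is 262127 bp long, and regions in it beyond 100 kb from the start were not placed. Its whole body held 5 Runx1-dependent regions. At least 10 such regions were placed on 5 of the 18677 genes, Bmper included, and at least 1 on 19.3%. That standing rests on the 100 kb limit, and 2 of the 10 regions lay within 20 kb of the start.

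Bmp7 was open at its start in both cell types, where the region was Runx1-independent, as for 49.4% of genes. All 7 of its Runx1KO-induced regions lay downstream of the start, from 8.88 to 98.7 kb, with 4 in Bmp7 introns and 3 beyond the end of the gene. As many or more induced regions were placed on 39 genes, and at least 1 on 24.4%. This standing too rests on the 100 kb limit, and 1 of the 7 regions lay within 20 kb of the start. No Runx1-dependent region was placed on Bmp7, though 1 lay within 100 kb of its start and nearer to the start of another gene. Among the members called in Runx1KO cells, Nog and Bmper, lower there, thus had dependent regions, and Bmp7, higher there, had induced ones.

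Id2, which fell 4.49-fold in Runx1KO cells, did not have this pattern. Its start was covered by a Runx1-independent region, and it had 10 Runx1-independent regions, a class placed on 67.0% of genes, with 2 Runx1-dependent and 2 Runx1KO-induced regions. The dependent regions lay 36.2 and 94.5 kb upstream, and the induced ones 13.0 kb upstream and 3.14 kb downstream. Id1 had 5 Runx1-independent regions, 1 at its start, with 1 dependent and 1 induced region 6.38 kb upstream and 6.42 kb downstream. Id3 had 6 independent regions, with 1 centred 0.403 kb downstream and over its RefSeq start, and 2 induced regions. Smad6 had 6 independent regions, 1 of them over its start, and 1 dependent region in an intron. Id3, lower in Runx1KO cells, and Smad6, higher there, neither of them called, thus did not have the pattern either. The ligand Bmp4 had 1 dependent region 46.1 kb upstream, and no ATAC-seq region was placed on Bmp2 or Grem1, so none of the 3 genes that stayed below 1 TPM had an open region at its start.

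ChIP-seq peaks were called by the authors on reads combined over replicates, and each carries a fold over local background and a -log10 q. The strongest member peak was at the distal Nog region. Runx1 was bound there in control cells with a fold of 7.88 (-log10 q 14.1) and Runx2 with 6.72 in control cells (-log10 q 14.6) and 6.12 in Runx1KO cells (-log10 q 14.6). A Runx2 peak was therefore listed in Runx1KO cells at a region that had become less open. Runx2 had 2 further peaks near Nog in Runx1KO cells, 0.773 kb upstream in an intron of Gm2018 and 1.13 kb downstream in a Nog exon, with folds of 3.52 and 2.86, and both overlapped the region at its start. No Runx1 peak was placed on Bmper, where 1 Runx2 peak lay in the Runx1-dependent region 77.5 kb into the gene, with a fold of 4.40 in control and 3.86 in Runx1KO cells. Without the 100 kb limit, the body of Bmper held 0 Runx1 peaks, and 1 Runx2 peak in control and 2 in Runx1KO cells.

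Likewise no Runx1 peak was placed on Bmp7, though 1 lay within 100 kb of its start and nearer to another. Its Runx2 peak in the induced region 33.9 kb downstream had a fold of 4.07 in control and 3.32 in Runx1KO cells, and 2 more Runx2 peaks 76.9 and 78.5 kb downstream were listed in control cells. At Id2 a Runx1 peak (fold 4.30) and a Runx2 peak (fold 3.96) lay 0.650 and 0.582 kb upstream in control cells. They overlapped no ATAC-seq region, but the Runx2 peak (chr12:25781409-25781669) lay right beside the Runx1-independent region over the start (chr12:25780755-25781401). In Runx1KO cells a Runx2 peak lay 3.95 kb upstream (fold 3.48). Runx1 peaks were placed on 5 of the 10 genes, namely Bmp2, Nog, Id1, Id2 and Id3, where 26.2% of genes had at least 1. The Bmp2 peak had a -log10 q of 1.89 and was lost at a q of 0.01 or less, which left 4 genes. Only Nog among them had its Runx1 peak in a Runx1-dependent region, and the Id1 peak lay in a Runx1-independent region. Runx2 peaks were placed on 7 of the 10 genes in each cell type, Bmp7, Nog, Bmper, Smad6 and the Id genes, where 43.2% of genes had at least 1 in control and 41.9% in Runx1KO cells.

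The windows below are the regions of Nog, Bmper and Bmp7 where Runx1 or Runx2 binding and a change in openness met, and are shown for that reason. They lie 95.6, 77.6 and 34.0 kb from the starts and were placed on these genes by the nearest start alone. Whether they act on these genes was not tested. Each is 200 bases around the middle of the strongest such peak in control cells, plus strand of mm9. Capitals mark TGTGGT, the core of the Runx motif, and CAGGTA or CAGGTG, the E-box core that Zeb proteins bind, searched on both strands. No marked letters overlap.
Nog distal region, chr11:89068193-89068392: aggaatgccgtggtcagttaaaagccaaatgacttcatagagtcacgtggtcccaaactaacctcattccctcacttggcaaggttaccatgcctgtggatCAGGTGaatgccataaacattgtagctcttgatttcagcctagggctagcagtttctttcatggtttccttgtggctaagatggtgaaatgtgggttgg
Bmper intron, chr9:23104972-23105171: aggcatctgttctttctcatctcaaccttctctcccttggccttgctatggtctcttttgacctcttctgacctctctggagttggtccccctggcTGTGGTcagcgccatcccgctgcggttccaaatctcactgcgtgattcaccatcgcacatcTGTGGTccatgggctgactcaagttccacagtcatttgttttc
Bmp7 intron, chr2:172731752-172731951: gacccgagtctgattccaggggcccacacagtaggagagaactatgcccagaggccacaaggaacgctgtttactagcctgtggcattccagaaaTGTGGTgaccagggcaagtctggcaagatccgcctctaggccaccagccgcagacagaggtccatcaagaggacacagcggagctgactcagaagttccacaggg

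The Bmper window held TGTGGT 2 times and the Bmp7 window 1 time. The Nog window, around the strongest peak, held no TGTGGT, and had 1 CAGGTG. The Runx core was in 33.5% of windows of this length around all Runx1 peaks and in 37.1% around Runx2 peaks of control cells, so most bound windows lack these 6 letters. Among windows in the middle of ATAC-seq regions, TGTGGT was in 26.9% of Runx1-dependent, 14.4% of Runx1KO-induced and 14.1% of Runx1-independent ones. The Zeb core was in 12.0%, 50.7% and 23.5% of the same classes. Of the 10 dependent regions of Bmper, 5 held TGTGGT in that window and none the Zeb core, and of the 7 induced regions of Bmp7, 3 held the Zeb core and 3 TGTGGT.

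RefSeq promoters (GRCm38.p6, 250 bases before to 50 after the start) were given for 6 of the 10 genes, Bmp4, Grem1, Bmper, Smad6, Id2 and Id3. The Bmper promoter is shown because its start lies in a Runx1-dependent region, with the first transcribed base in capitals and the last 20 bases left off. The sequence matched mm9 at a single place, on the plus strand.
Bmper promoter, chr9:23027270-23027549: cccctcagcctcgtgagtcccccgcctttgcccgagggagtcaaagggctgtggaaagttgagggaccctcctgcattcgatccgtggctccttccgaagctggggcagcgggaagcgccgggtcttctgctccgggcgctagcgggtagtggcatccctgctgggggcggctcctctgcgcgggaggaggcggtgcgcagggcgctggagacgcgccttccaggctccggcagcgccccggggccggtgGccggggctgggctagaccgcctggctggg

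It held neither TGTGGT nor the Zeb core, which were in 16.8% and 29.5% of all 32851 promoters. GGCGCC, a site bound by BMP-activated SMADs, was in the promoters of Id2 and Grem1 and in 11.9% of all.

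For each called member, the genes most like it in pattern over the 9 libraries were sought among 13367 genes. Likeness was the Pearson correlation of log2(TPM + 1). The 9 points form 3 groups, so r mostly measures the pattern of the group means. It takes no account of level or of the size of a change. Bmp7 was most like ccdc198 (r = 0.997) and Adam8 (r = 0.995), a membrane metalloprotease gene. Nog was most like Mt2 (r = 0.998), a metallothionein gene at 1098, 144 and 588 TPM in control, Runx1KO and ZebDKO cells, and Gnpda2 (r = 0.997). Bmper was most like Gclm (r = 0.997) and C1ra (r = 0.996), and Id2 most like C1ra (r = 0.999) and Arnt (r = 0.998), so Bmper and Id2 shared the complement gene C1ra. Gclm stood at 296, 165 and 185 TPM in control, Runx1KO and ZebDKO cells, a smaller change than that of Bmper. Id3 was most like Ppp2cb (r = 0.993) and Btbd9 (r = 0.992).

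In the order of member levels in control cells, Id2 at 335 ± 13.8 TPM and Id3 at 302 ± 8.16 TPM stood above Id1 at 84.6 ± 1.01 TPM, followed by Nog, Smad6, Bmper and Bmp7. The Smad6, Bmper and Bmp7 libraries overlapped between neighbours. In Runx1KO cells Id3 was highest at 252 ± 13.6 TPM, with Id1 at 86.1 ± 4.20 above Id2 at 74.5 ± 5.55 TPM, and in ZebDKO cells Id3 stood at 523 ± 62.2 TPM above Id2 at 93.6 ± 4.73 and Id1 at 79.2 ± 7.19 TPM. The place of Id2 among the Id genes thus changed with genotype, but its place above Id3 in control cells was not held in the second deposited table, where Id2 was at 142 ± 5.26 and Id3 at 185 ± 5.73 TPM. Levels there were lower for Nog (16.3 ± 2.27 TPM) and Bmp7 (3.07 ± 0.348 TPM) and like those above for Id1 (84.2 ± 3.75 TPM), so comparisons of level between genes depend on the table.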

How the data were processed

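The members and the gene lists were chosen with earlier results of these data known. Per their methods, reads were trimmed (Trim Galore), mapped to mm9 (STAR), cleared of duplicates (sambamba) and counted on genes (featureCounts), and the authors deposited TPM, 1 decimal, for 9 libraries, and a second TPM table of 6 of them. Depth cannot be read from TPM, and strand use in counting is not given in the sources used here. For ChIP-seq the authors deposited MACS2 peaks of combined replicates, with the fold over local background as a ratio and the -log10 q. For ATAC-seq the authors deposited 3 classes of region whose log2 and -log10 columns hold their own comparison and were not used. GENCODE vM1 and the genome used here are of the files' build, and no peak ran past a chromosome end.

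Tests used limma 3.58.1 in R 4.3.3 (trend, 2-sided, Benjamini-Hochberg over all genes tested) and were tested on simulated data. Peaks were placed and motifs counted with Python 3.11.15 and pandas 2.3.3, and figures drawn with matplotlib 3.10.9. Regions and peaks that shared at least 1 bp were taken as overlapping. Genes named were the members, list genes called in any comparison, and for each called member the 2 genes most like it. Same-numbered libraries of different groups did not deviate together (r = -0.049 to 0.040, other numbers -0.062 to 0.065), so numbers were not taken as pairs. The alternatives are given in the closing section.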

Additional observations from a re-analysis of the deposited data

Results flagged for a closer look

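The genes below differed between the knockouts when ZebDKO and Runx1KO libraries were compared directly with limma, which is the test of the difference between their effects against the shared control libraries. Among the members, Nog (log2 fold change 3.27), Id3 (1.05), Id2 (0.33) and Smad6 (-0.56) had an adjusted p under 0.05, as did 80.0% of all genes tested, and Nog and Id3 also passed the 2-fold limit, as did 15.8% of all genes. Of the further pathway genes, Bmp5 (5.05), Smad7 (1.44), Tob2 (1.36) and Smad9 (1.07) were called higher in ZebDKO cells. Nog, Bmp5 and Smad9 passed the filter there through the ZebDKO libraries alone. Fst (-1.59), Tob1 (-1.44), Nbl1 (-1.17), Bambi (-1.16), Tgfbr3 (-1.14), Ski (-1.06) and Bmp6 (-1.01) were called lower. The parts of clone and of any batch of the ZebDKO libraries in these differences were not tested.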

How the results depend on the processing

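Pseudocounts, filters, scaling, 1 fit over 9 libraries, the 6-library table and leaving out each library were tried. Of 307 recomputed fold changes of members, 298 kept direction and side of the limit. Bmp7, Nog, Bmper and Id2 stayed called against control under all of them in both knockouts. Genes called at a limit of 1.3-fold numbered 4857, 6746 and 6780 in Runx1KO against control, ZebDKO against control and ZebDKO against Runx1KO. At that limit 4, 5 and 3 members were called, from 4, 4 and 2, with Id3 added in ZebDKO against control and Smad6 between the knockouts. Members called in the last comparison went from 2 to 1 under quantile normalization, and to between 1 and 2 with 1 library left out. The direction turned for Id1 without Runx1KO replicate 1 (-0.00996, and up to 0.0597 with other libraries left out) and under median-ratio scaling (0.10 in ZebDKO against control, 0.040 against Runx1KO), for Smad6 in ZebDKO against control (0.022, quantile) and for Bmp7 between the knockouts (0.033, quantile), none of them called. The cause was not tested. With a replicate block 1709, 1923 and 2073 genes and 4, 4 and 2 members were called, and the block changed no call of a member.

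Counting all regions within 100 kb, whichever gene was nearest, gave 25 Runx1-dependent, 20 Runx1KO-induced and 63 Runx1-independent ATAC-seq regions, from 17, 12 and 29. It gave 7 Runx1 peaks, and 30 and 27 Runx2 peaks in control and Runx1KO cells, from 5, 14 and 16. Bmp7 then had 1 Runx1-dependent region and 1 Runx1 peak, from 0 of each. Within 20 kb there were 4 dependent, 4 induced and 17 independent regions, 3 Runx1 peaks, and 7 and 9 Runx2 peaks. At that limit Bmper had 2 dependent regions, from 10, and Bmp7 had 1 induced region, from 7. Nog had 0 Runx1 peaks there, from 1. Asking for 50% of an ATAC-seq region to be covered left 0 bound by Runx1, from 2, and 3 by Runx2 in each cell type, from 9. At a q of 0.01 or less the Runx1 peaks went from 5 to 4, without the Bmp2 peak, and no member lost a Runx2 peak. The fewer or more regions follow from the limits themselves.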
